A study of Homo sapiens with 9 samples.

Results

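The mRNAs of 10 receptor tyrosine kinases outside the ErbB family were followed across 3 pancreatic cancer cell lines. The genes were MET, AXL, MERTK, TYRO3, FGFR1, FGFR2, FGFR3, FGFR4, IGF1R and DDR1. They were picked by gene symbol, with earlier results of these data known, so the choice was not independent of the data. All 10 were found among the 42717 genes of the deposited count table. The lines S2-007, S2-020 and S2-028 were all derived from SUIT-2 cells of human pancreatic adenocarcinoma. Each was sequenced as 3 libraries after growth in DMEM with 10% fetal bovine serum and no further treatment. S2-007 carries maspin, a clade B serpin, in the nucleus and the cytoplasm (panMaspin), S2-028 carries it in the cytoplasm (cytMaspin), and S2-020 has little of the protein. The sources do not say whether a line is a single clone or whether the 3 libraries of a line came from separate cultures, so the p-values measure the spread between these libraries, which may be technical.

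Receptor tyrosine kinases are membrane proteins that bind a ligand outside the cell. Working as pairs, they phosphorylate one another and their adaptors inside the cell, which feeds the RAS-ERK and PI3K-Akt pathways. MET binds hepatocyte growth factor. The TAM receptors TYRO3, AXL and MERTK bind GAS6, and protein S is a ligand of TYRO3 and MERTK but not of AXL. The FGFR family binds fibroblast growth factors together with heparan sulfate or klotho proteins. IGF1R binds insulin-like growth factors, and DDR1 is activated by collagen. In pancreatic cancer these receptors are studied for growth, invasion and resistance to inhibitors of other kinases.

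Library totals ranged from 60328748 to 86253923 counts. Levels are given as normalized CPM, that is counts scaled to the size of each library with TMM factors. SERPINB5, the gene of maspin, had 211.5 ± 9.10 normalized CPM (SD, n = 3) in S2-007, 27.7 ± 2.75 in S2-028 and 6.55 ± 0.428 in S2-020. Of 7 markers of carcinoma epithelium (EPCAM, KRT8, KRT18, KRT19, CDH1, CLDN4 and CLDN7), all had at least 1000 counts in each library of S2-007 and S2-028, whereas 5 did so in S2-020, the exceptions being CDH1 and CLDN7. The summed level of the 7 lay between 9447 and 9944 CPM in S2-007, between 14620 and 17140 in S2-028 and between 4299 and 5414 in S2-020. KRT8 was the largest part of the sum in every line, and the markers differed unevenly. KRT18 was at 1682 ± 194 CPM in S2-020 against 2016 ± 101 in S2-007, and KRT19 at 103 ± 12.9 against 2123 ± 40.7. CDH1, the gene of E-cadherin, was at 4.55 ± 0.270 CPM in S2-020 against 54.2 ± 2.43 in S2-007. The 8 fibroblast markers summed to at most 8.51 CPM, the 4 endothelial markers to at most 10.01 CPM in any library, and the 5 acinar markers to at most 1.07 CPM. The 6 leukocyte markers summed to between 338 and 411 CPM in S2-007, mainly LYZ (332 CPM on average) and CD68 (41.05 CPM), and to at most 14.9 CPM in the other lines, while PTPRC, the defining leukocyte gene, did not exceed 0.407 CPM in any library.

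All 10 receptor genes passed the expression filter in every comparison. A call required an adjusted p (Benjamini-Hochberg) under 0.05 in edgeR's quasi-likelihood test together with a fold change of at least 1.5, which is 0.585 on the log2 scale. Between S2-028 and S2-007, 5 of the 10 were called. FGFR1, FGFR2, AXL and IGF1R were higher and FGFR3 was lower in S2-028. Of all 26371 genes tested, 18.4% were called in this comparison, 10.2% higher and 8.19% lower in S2-028. Between S2-020 and S2-007, 7 were called, with FGFR1, AXL and IGF1R higher and MET, MERTK, FGFR3 and DDR1 lower in S2-020, where 21.6% of all genes tested were called (9.57% higher and 12.1% lower). Between S2-028 and S2-020, 5 were called, and MET, MERTK, FGFR2, FGFR3 and DDR1 were all higher in S2-028. The share of all genes tested was 22.2% (12.1% higher and 10.1% lower). The comparisons share libraries, so their calls are not independent of each other. Because bulk RNA was measured, fewer cells that express a receptor and less mRNA per cell cannot be told apart.

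Over the 10 receptors, log2 fold changes had a median of 0.37 in S2-028 against S2-007, -0.25 in S2-020 against S2-007 and 0.71 in S2-028 against S2-020. The medians over all genes tested were 0.002, -0.053 and 0.025. Without the fold-change threshold, 10, 7 and 10 of the 10 receptors had an adjusted p under 0.05, against 33.9%, 40.2% and 40.4% of all genes tested. The libraries of the lines compared did not overlap for 9, 7 and 10 of the 10 genes in these comparisons. Among all genes tested, 43.3%, 48.5% and 48.9% had libraries that did not overlap. Such shares depend partly on how many counts a gene has, which was not matched here or for the gene lists below. The receptors had at least 94 counts in every library, and the genes tested include some with fewer.

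**Figure D1:**
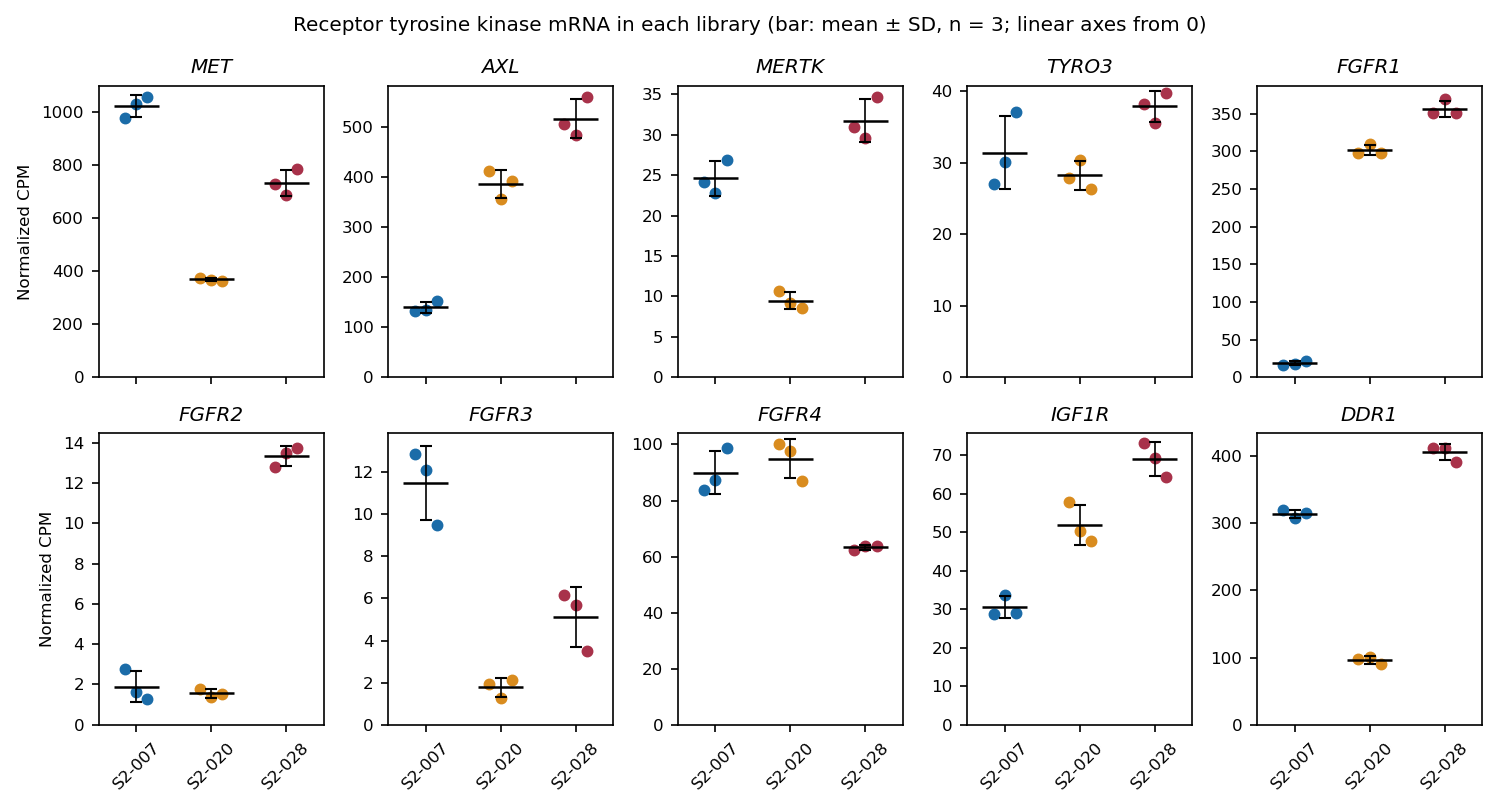
Normalized CPM of the 10 receptor genes (vertical axis, linear and starting at 0) in the 9 libraries, by line; points are libraries and bars are mean ± SD (n = 3). FGFR1 was near the axis only in S2-007 (18.95 CPM on average), whereas MET, MERTK and DDR1 were lowest in S2-020 and FGFR2 was above 10 CPM only in S2-028.

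The widest range belonged to FGFR1 (NCBI gene 2260), a receptor for many fibroblast growth factors that is prominent in mesenchymal cells. The gene lies on the minus strand of chromosome 8 from 38411143 to 38468635 of GRCh38.p14, and other genes, mainly LETM2, overlap 3.05% of its exon bases. FGFR1 had 16.7, 18.1 and 22.1 normalized CPM in the 3 S2-007 libraries, 297, 309.6 and 298 in S2-020 and 351, 369 and 350.1 in S2-028. Every library of S2-020 and S2-028 was far above every library of S2-007. The log2 fold change was 4.24 in S2-028 against S2-007 (standard error 0.0835, adjusted p = 3.10e-19), which is 18.9-fold. In S2-020 against S2-007 it was 3.96 (standard error 0.0780, adjusted p = 1.13e-18), which is 15.6-fold. S2-028 was above S2-020 by 0.24 (standard error 0.0477, adjusted p = 3.15e-04), without overlap between their libraries but under the 1.5-fold threshold.

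FGFR2 (NCBI gene 2263, chromosome 10 from 121478330 to 121598458, minus strand), whose main epithelial form responds to FGF7 and FGF10, was a low gene with another order of the lines. It had 2.78, 1.64 and 1.28 normalized CPM in S2-007, 1.77, 1.36 and 1.55 in S2-020 and 12.8, 13.5 and 13.7 in S2-028. S2-028 was above both other lines in every library, and the libraries of S2-007 and S2-020 overlapped. FGFR2 was 7.01-fold higher in S2-028 than in S2-007 (log2 fold change 2.81, standard error 0.205, adjusted p = 3.71e-10) and 8.58-fold higher than in S2-020 (3.10, standard error 0.146, adjusted p = 1.43e-12). S2-020 and S2-007 were not told apart (-0.32, standard error 0.275, adjusted p = 0.407), and the sign of this difference rested on replicate 1 of S2-007, without which the log2 fold change was 0.078.

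FGFR3 (NCBI gene 2261, chromosome 4 from 1793293 to 1808867), a receptor known from bone growth and from bladder cancer, was highest in S2-007. Its levels were 12.8, 12.1 and 9.50 normalized CPM in S2-007, 6.18, 5.68 and 3.51 in S2-028 and 1.93, 1.29 and 2.10 in S2-020. The 3 lines formed separate steps, in the order S2-007, S2-028, S2-020. Each step passed the test, with S2-028 lower than S2-007 (log2 fold change -1.16, standard error 0.178, adjusted p = 1.91e-05) and higher than S2-020 (1.53, standard error 0.234, adjusted p = 2.08e-05). S2-020 against S2-007 gave -2.73 (standard error 0.181, adjusted p = 1.52e-10).

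FGFR4 (NCBI gene 2264, chromosome 5 from 177086915 to 177098144) is the receptor that answers FGF19 together with the co-receptor β-klotho. It had 83.8, 87.3 and 98.7 normalized CPM in S2-007, 100.1, 97.7 and 86.9 in S2-020 and 62.3, 63.8 and 63.7 in S2-028. The libraries of S2-007 and S2-020 overlapped, and those of S2-028 lay below all of them. No comparison of FGFR4 was called. The log2 fold change was 0.048 in S2-020 against S2-007 (standard error 0.0655, adjusted p = 0.626) and -0.50 in S2-028 against S2-007 (standard error 0.0653, adjusted p = 2.15e-06). The value for S2-028 against S2-020 was -0.58 (standard error 0.0627, adjusted p = 2.34e-07), just inside the fold-change threshold, so that small changes of the procedure turned it into a call.

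Divided by the length of the main transcript (the MANE Select transcript of GENCODE 44), the levels of the FGFR genes can be set beside each other. Comparing genes by CPM per kilobase is rough here. Other transcripts may be the ones expressed, and reads over exon junctions may be lost unevenly between genes. FGFR4 made up 81.9% ± 1.39 (SD, n = 3 libraries) of the FGFR mRNA of S2-007 by CPM per kilobase, and FGFR1 9.34% ± 0.724. In S2-020 the shares were 36.4% ± 1.66 for FGFR4 and 62.7% ± 1.64 for FGFR1, and in S2-028 they were 23.5% ± 0.481 and 71.8% ± 0.355. FGFR4 was thus the leading FGFR mRNA of S2-007 and FGFR1 that of the other lines. FGFR3 reached 7.60% ± 1.63 in S2-007 and FGFR2 3.31% ± 0.131 in S2-028. The sum over the FGFR genes was 35.5 ± 2.46 CPM per kilobase in S2-007, 84.3 ± 2.83 in S2-020 and 87.1 ± 2.18 in S2-028. Gene counts do not separate the epithelial and mesenchymal splice forms of FGFR1, FGFR2 and FGFR3, so these were not analysed here.

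**Figure D2:**
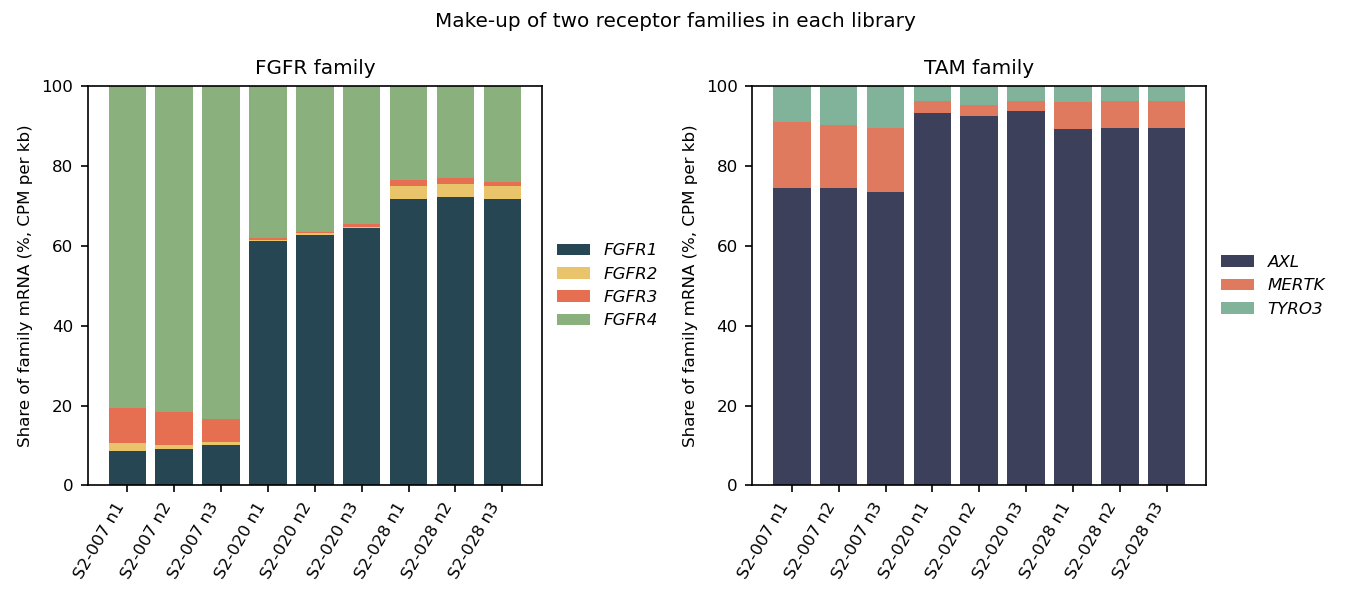
Share of each gene in the summed mRNA (%, from CPM per kilobase) of the FGFR family (left) and the TAM family (right), 1 bar per library. FGFR4 made up at least 80.6% of FGFR mRNA in each S2-007 library and at most 37.9% in any library of the other lines, while AXL led the TAM family in all 9 libraries.

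AXL (NCBI gene 558, chromosome 19 from 41219223 to 41261766) and the other TAM receptors take up apoptotic cells and damp innate immunity in normal tissue, and AXL is known in carcinoma for its link to mesenchymal features and drug tolerance. AXL had 133, 134 and 152.5 normalized CPM in S2-007, 411, 356 and 391.5 in S2-020 and 505, 483 and 559 in S2-028. All 3 lines stood apart from one another, in the order S2-028, S2-020, S2-007. AXL was 3.70-fold higher in S2-028 than in S2-007 (log2 fold change 1.89, standard error 0.0680, adjusted p = 3.58e-15) and 2.71-fold higher in S2-020 than in S2-007 (1.44, standard error 0.0621, adjusted p = 2.05e-13). S2-028 was above S2-020 by 0.42 (standard error 0.0605, adjusted p = 1.05e-05), under the fold-change threshold.

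MERTK (NCBI gene 10461, chromosome 2 from 111898607 to 112029561), best known from phagocytes, moved against AXL in S2-020 relative to S2-007. Relative to S2-028, both were lower in S2-020. It had 24.1, 22.7 and 26.9 normalized CPM in S2-007, 10.7, 9.23 and 8.56 in S2-020 and 30.9, 29.5 and 34.7 in S2-028. S2-020 was lowest in every library. The log2 fold change was -1.40 in S2-020 against S2-007 (standard error 0.0999, adjusted p = 4.69e-10) and 1.74 in S2-028 against S2-020 (standard error 0.102, adjusted p = 3.72e-11). In S2-028 against S2-007 it was 0.37 (standard error 0.0875, adjusted p = 0.00184), under the fold-change threshold.

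TYRO3 (NCBI gene 7301, chromosome 15 from 41559212 to 41583589), the TAM receptor of neurons and some tumours, varied least of the 10 genes. Its levels were 27.0, 30.1 and 37.1 normalized CPM in S2-007, 27.9, 30.4 and 26.3 in S2-020 and 38.2, 35.5 and 39.8 in S2-028. S2-007 overlapped with both other lines, and S2-028 lay above S2-020 without overlap. No comparison was called, with log2 fold changes of 0.27 in S2-028 against S2-007 (standard error 0.0935, adjusted p = 0.0272), -0.18 in S2-020 against S2-007 (standard error 0.0927, adjusted p = 0.133) and 0.42 in S2-028 against S2-020 (standard error 0.0785, adjusted p = 1.77e-04). Other genes, foremost the pseudogene TYRO3P, share 15.2% of the transcript sequence of TYRO3 in words of 31 bases, so its counts are less certain than those of the other receptors, for which the share was at most 3.06%.

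By CPM per kilobase, AXL made up 74.2% ± 0.569 of the TAM mRNA in S2-007, 93.2% ± 0.695 in S2-020 and 89.4% ± 0.0704 in S2-028 (SD, n = 3). The share of MERTK was 16.1% ± 0.542, 2.82% ± 0.258 and 6.77% ± 0.0556 in the same order. The TAM sum was 39.96 ± 3.47 CPM per kilobase in S2-007, 87.8 ± 5.91 in S2-020 and 122 ± 9.30 in S2-028.

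MET (NCBI gene 4233, chromosome 7 from 116672196 to 116798377), the receptor of scatter and invasive growth, had the highest CPM of the 10 receptors in S2-007 and S2-028. Its levels were 977.5, 1032 and 1059 normalized CPM in S2-007, 375, 369 and 364 in S2-020 and 729.5, 688 and 786 in S2-028. The lines formed separate steps in the order S2-007, S2-028, S2-020, the opposite end from AXL for S2-007. MET was 2.83-fold lower in S2-020 than in S2-007 (standard error 0.0458 on the log2 scale, adjusted p = 9.08e-16). It was 1.99-fold higher in S2-028 than in S2-020 (0.99, standard error 0.0512, adjusted p = 5.60e-12). In S2-028 against S2-007 the difference was -0.47 (standard error 0.0577, adjusted p = 8.86e-07), under the fold-change threshold although no libraries overlapped.

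DDR1 (NCBI gene 780, chromosome 6 from 30880970 to 30900156), the collagen receptor of epithelia, had 319.9, 307 and 315 normalized CPM in S2-007, 97.3, 101 and 90.0 in S2-020 and 413, 412 and 392 in S2-028. Its S2-020 libraries were far below all others. DDR1 was 3.34-fold lower in S2-020 than in S2-007 (log2 fold change -1.74, standard error 0.0554, adjusted p = 1.73e-15). It was 4.22-fold higher in S2-028 than in S2-020 (2.08, standard error 0.0553, adjusted p = 2.67e-16). S2-028 was above S2-007 by 0.37 (standard error 0.0558, adjusted p = 1.44e-05), under the fold-change threshold. DDR1 lies in the MHC region, for which the genome build also holds alternative haplotypes, and whether reads could map to these is not given in the sources used here. MET, MERTK, FGFR3 and DDR1 were lowest in S2-020, as was the summed level of the 7 epithelial markers given above, and the part of that difference in these receptor levels was not tested.

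IGF1R (NCBI gene 3480, chromosome 15 from 98648539 to 98964530), which sustains survival and growth signals, had 28.7, 33.8 and 29.1 normalized CPM in S2-007, 57.8, 50.2 and 47.6 in S2-020 and 73.1, 69.3 and 64.3 in S2-028. The lines again formed separate steps, in the order of AXL and FGFR1. The log2 fold change was 1.18 in S2-028 against S2-007 (standard error 0.0790, adjusted p = 9.84e-11) and 0.73 in S2-020 against S2-007 (standard error 0.0822, adjusted p = 3.36e-07). S2-028 was above S2-020 by 0.41 (standard error 0.0741, adjusted p = 1.31e-04), under the fold-change threshold.

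**Figure D3:**
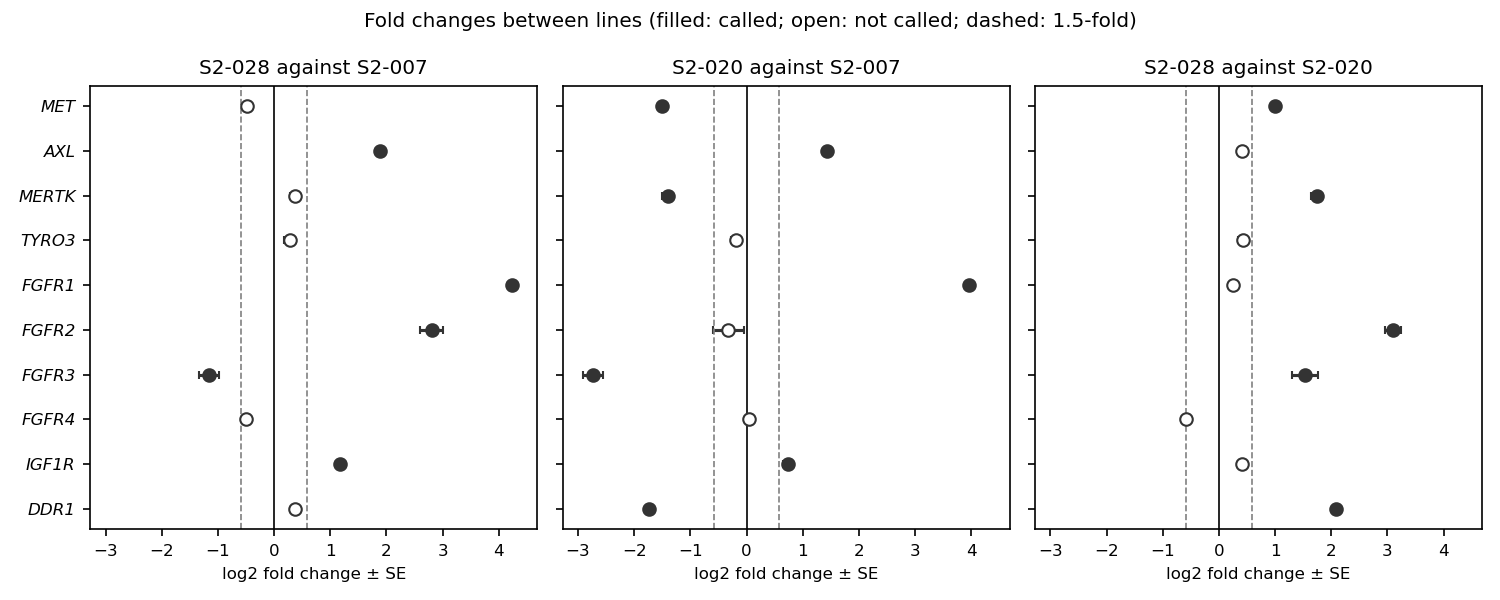
Log2 fold change ± standard error (horizontal axis) of the 10 receptor genes in the 3 comparisons of lines, from edgeR's quasi-likelihood fit of 3 against 3 libraries; filled points were called, open points were not, and dashed lines mark 1.5-fold. FGFR1 stood at 4.24 and 3.96 against S2-007 but at 0.24 between S2-028 and S2-020, and MET, MERTK, FGFR3 and DDR1 lay to the left in S2-020 against S2-007 and to the right in S2-028 against S2-020.

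Ranked by CPM per kilobase, MET led in S2-007 (149.9 ± 6.08), followed by DDR1 (81.9 ± 1.66), AXL (29.6 ± 2.34) and FGFR4 (29.1 ± 2.51), the last pair within their spread. In S2-020, AXL led (81.8 ± 5.94), followed by MET (54.2 ± 0.815) and FGFR1 (52.9 ± 1.25), which were within their spread, then FGFR4 (30.7 ± 2.28) and DDR1 (25.1 ± 1.47). In S2-028, AXL (109 ± 8.36), MET (107.6 ± 7.21) and DDR1 (105.7 ± 3.12) did not differ beyond their spread, and FGFR1 followed (62.6 ± 1.88). MET thus made up 48.4% ± 0.821 of the summed mRNA of the 10 receptors in S2-007, against 21.2% ± 0.292 in S2-020 and 25.1% ± 1.002 in S2-028 (SD, n = 3). The sum itself was 309.7 ± 11.0 CPM per kilobase in S2-007, 256 ± 7.17 in S2-020 and 428.5 ± 11.6 in S2-028. FGFR2, FGFR3, IGF1R, TYRO3 and MERTK stayed under 10 CPM per kilobase in every line.

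The stretch of 250 bases before the start of the main transcript is shown for AXL, MET and DDR1, the receptors that led the ranking and that differed in the order of the lines. The sequences come from RefSeq for GRCh38.p14 and all lie on the plus strand, and the DDR1 stretch lies inside the bounds that RefSeq gives the DDR1 gene. The positions are chr19:41218973-41219222 for AXL, chr7:116671946-116672195 for MET and chr6:30884269-30884518 for DDR1. Capitals mark matches to GGGCGG, the core of the GC box bound by SP1, on either strand.
AXL: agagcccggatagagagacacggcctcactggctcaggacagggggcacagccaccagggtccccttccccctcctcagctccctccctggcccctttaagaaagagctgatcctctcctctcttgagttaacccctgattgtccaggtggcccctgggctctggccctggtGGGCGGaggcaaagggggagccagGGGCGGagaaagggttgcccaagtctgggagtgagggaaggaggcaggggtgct
MET: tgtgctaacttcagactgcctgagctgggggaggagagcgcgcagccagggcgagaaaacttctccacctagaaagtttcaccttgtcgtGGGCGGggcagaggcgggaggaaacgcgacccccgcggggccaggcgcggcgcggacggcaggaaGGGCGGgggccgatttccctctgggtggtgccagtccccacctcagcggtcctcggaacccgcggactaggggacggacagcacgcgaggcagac
DDR1: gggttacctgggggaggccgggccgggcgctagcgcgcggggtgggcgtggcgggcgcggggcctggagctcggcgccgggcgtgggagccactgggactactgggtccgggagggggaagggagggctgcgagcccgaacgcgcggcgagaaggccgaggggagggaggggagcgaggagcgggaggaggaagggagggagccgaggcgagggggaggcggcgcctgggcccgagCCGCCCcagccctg
AXL and MET each held 2 matches and DDR1 1, and 42.6% of the 35116 promoters of the table held at least 1. TGANTCA, the motif of AP-1, matched in none of the 3 stretches, and it matched in 6.57% of all promoters of the table. The stretch before AXL held 4 CG pairs, against 24 before MET and 30 before DDR1. Of the other receptor genes with an entry at that start, the number of CG pairs was 24 for FGFR4, 25 for MERTK, 39 for TYRO3, 40 for FGFR3, 42 for FGFR2 and 48 for IGF1R. A match is a match of letters only, and methylation was not measured here.

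Each receptor was set beside the 50 tested genes nearest to it on its chromosome. In S2-028 against S2-007, FGFR1 stood at a log2 fold change of 4.24 and its neighbours at a median of 0.13, with 1 of the 50 above it. FGFR2, at 2.81, was above all 50 of its neighbours (median -0.11). AXL, at 1.89, was above 49 of 50, and its neighbours had a median of 0.34. IGF1R, at 1.18, was above 45 of 50. In S2-020 against S2-007, MERTK (-1.40) and FGFR3 (-2.73) were below all 50 of their neighbours, whose medians were -0.044 and -0.25, and FGFR1 was above all 50. DDR1 (-1.74) was below 47 of its neighbours, with a median of 0.18, and MET was below 46, with a median of -0.15. TYRO3, FGFR2 and FGFR4 lay nearer to their neighbours in this comparison.

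**Figure D4:**
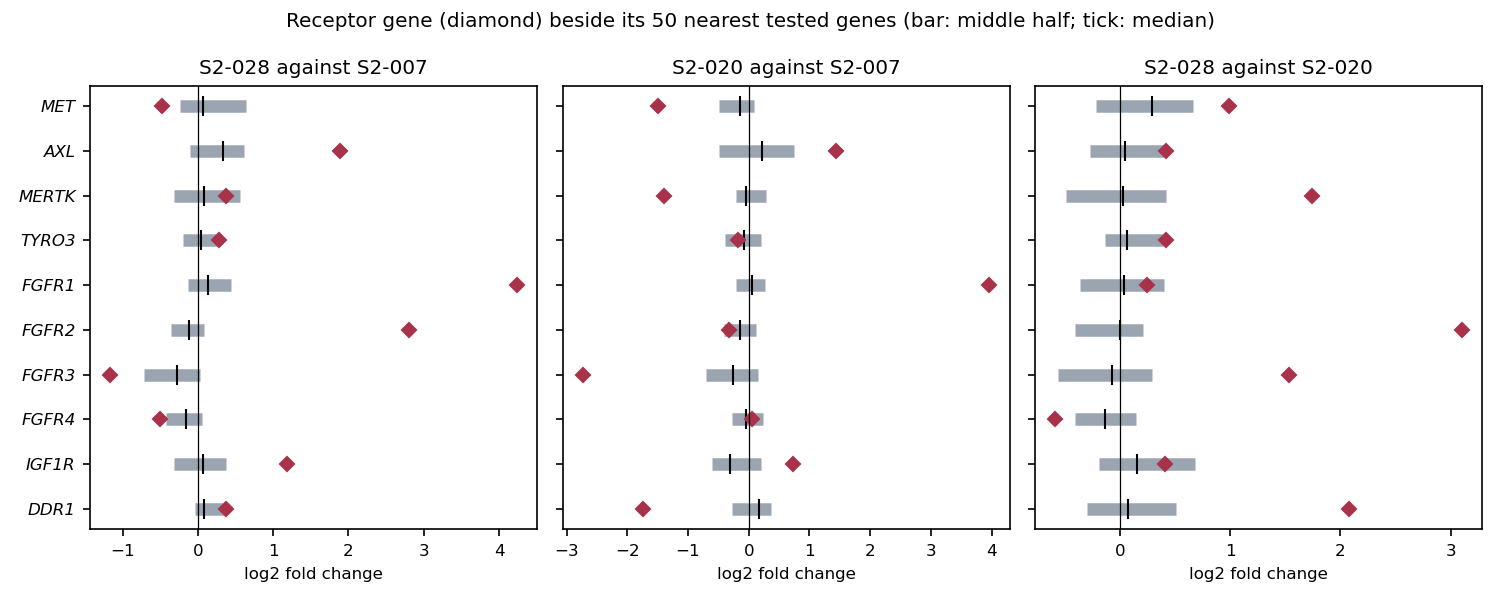
Log2 fold change of each receptor gene (diamond) and of the 50 nearest tested genes on its chromosome (bar from the lower to the upper quartile, tick at the median) in the 3 comparisons. The medians of the neighbours lay between -0.30 and 0.34, far from the diamonds of FGFR1, FGFR2, MERTK and DDR1 where these were called.

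The ligands were taken as a list of 29 genes. The list also holds FGF11, FGF12, FGF13 and FGF14, intracellular members of the fibroblast growth factor family that are not secreted. The counts below include them. FGF14 was called in every comparison, and FGF11 and FGF12 in both comparisons with S2-020. In S2-028 against S2-007, 3 of the 22 tested were higher and 5 lower. In S2-020 against S2-007, 4 of 25 were higher and 6 lower, and in S2-028 against S2-020, 4 of 21 were higher and 5 lower. The median log2 fold changes were -0.15, -0.26 and -0.12, beside the medians of all genes given above, and the shares called were 36.4%, 40.0% and 42.9% against 18.4%, 21.6% and 22.2%. HGF, the ligand of MET, was near the limit of detection, with 6 to 28 counts per library and no call in any comparison (adjusted p between 0.490 and 0.917). GAS6, the ligand of the TAM receptors, had 44.8 ± 2.36 normalized CPM (SD, n = 3) in S2-020, against 2.42 ± 0.203 in S2-007 and 1.40 ± 0.614 in S2-028. It rose by 4.18 on the log2 scale in S2-020 against S2-007 (standard error 0.0966, adjusted p = 1.29e-17). S2-028 against S2-007 gave -0.79 for GAS6 (standard error 0.273, adjusted p = 0.0298), which was a call. PROS1, which encodes protein S, had 28.5 ± 1.95 in S2-007, 13.4 ± 2.35 in S2-020 and 9.26 ± 1.5 in S2-028. It fell in both against S2-007 (log2 fold changes of -1.11 in S2-020 and -1.62 in S2-028), so that it went against GAS6 only in S2-020. S2-020 thus had the highest GAS6 mRNA level beside a high AXL mRNA level, and S2-028 the highest AXL mRNA level with little GAS6 mRNA. Ligand proteins, whether made by the cells or brought by the serum of the medium, were not measured here.

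IGF2, a ligand of IGF1R and of the insulin receptor, was the ligand with the most counts. It had 5118 ± 201 normalized CPM (SD, n = 3) in S2-020, against 1077 ± 61.5 in S2-007 and 1080.0 ± 55.7 in S2-028, and rose by 2.22 on the log2 scale in S2-020 against S2-007 (standard error 0.0437, adjusted p = 1.13e-18). S2-028 against S2-007 gave 0.0080 (standard error 0.0549, adjusted p = 0.942). The table also counts the overlapping readthrough gene INS-IGF2, so the split of reads between them is uncertain. IGF1 was low in all lines, with means between 1.14 and 1.39 normalized CPM and no call.

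Among the fibroblast growth factors, FGF2, a basic ligand of FGFR1, had 85.5 ± 4.43 normalized CPM (SD, n = 3) in S2-020, 23.6 ± 5.27 in S2-007 and 15.9 ± 1.68 in S2-028. It was higher in S2-020 than in S2-007 by 1.83 on the log2 scale (standard error 0.101, adjusted p = 9.65e-12) and lower in S2-028 than in S2-020 (-2.43, standard error 0.0804, adjusted p = 6.75e-15). FGF19, the endocrine ligand of FGFR4, had 18.5 ± 2.83 CPM in S2-028 and 3.50 ± 0.250 in S2-007, and between 0 and 8 counts per library in S2-020. Between S2-028 and S2-007 it differed by 2.41 on the log2 scale (standard error 0.135, adjusted p = 5.45e-12). FGF3 followed the same order, with 9.09 ± 0.741 CPM in S2-028, 1.08 ± 0.376 in S2-007 and 0.248 ± 0.0962 in S2-020. KLB, the gene of β-klotho, stayed between 0.815 and 1.15 CPM on average and was not called. FGF14, an intracellular member of the family that is not secreted, was at 10.5 ± 0.497 CPM in S2-028, 4.15 ± 0.238 in S2-007 and 1.27 ± 0.145 in S2-020. MST1, the ligand of the MET relative MST1R, fell against S2-007 in both S2-020 (-1.39, standard error 0.174) and S2-028 (-1.31, standard error 0.222).

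**Figure D5:**
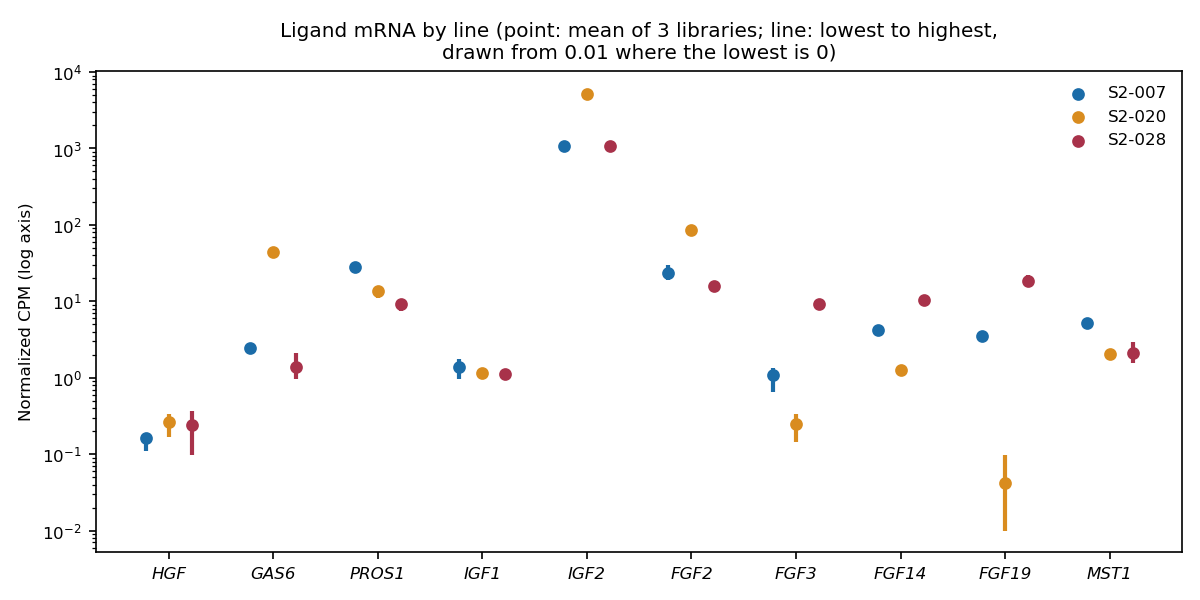
Normalized CPM (logarithmic axis) of 10 genes of the ligand list, among them the intracellular FGF14, in the 3 lines; points are means of 3 libraries and vertical lines run from the lowest to the highest library. GAS6 (44.8), IGF2 (5118) and FGF2 (85.5) were highest in S2-020, FGF3 and FGF19 in S2-028, and HGF lay under 0.4 CPM in every library.

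The proteases that activate HGF and their inhibitors, 10 genes of which 9 were tested, held some of the widest differences. Of the 9, 5 were higher and 1 lower in S2-028 against S2-007, 1 was higher and 5 lower in S2-020 against S2-007, and 7 were higher and 1 lower in S2-028 against S2-020. Their medians were 0.71, -1.18 and 3.82, with 66.7%, 66.7% and 88.9% called against 18.4%, 21.6% and 22.2% of all genes tested. ST14 and SPINT1, which are known from epithelia, were lowest in S2-020, as was the sum of the epithelial markers. SPINT2, another inhibitor gene of the list, was instead lowest in S2-007. Its mean was 240.9 normalized CPM in S2-007, 336.4 in S2-020 and 538.1 in S2-028. The log2 fold change of SPINT2 in S2-020 against S2-007 was 0.45 (standard error 0.0519, adjusted p = 4.996e-07), under the fold-change threshold. The part of the epithelial markers in these levels was not tested. ST14, which encodes the epithelial protease matriptase, had 471 ± 29.6 normalized CPM (SD, n = 3) in S2-007, 619 ± 24.7 in S2-028 and 7.26 ± 0.436 in S2-020. SPINT1, its inhibitor HAI-1, had 85.96 ± 6.11, 141 ± 4.58 and 7.13 ± 0.789 CPM in the same order. Both fell in S2-020 against S2-007, ST14 at -6.05 (standard error 0.0762) and SPINT1 at -3.62 (standard error 0.0865) on the log2 scale. PLAU, the urokinase gene, rose from 408 ± 43.2 in S2-007 to 2697 ± 328 in S2-028 (log2 fold change 2.73, standard error 0.0815), and PLAT, the tissue activator, fell from 314 ± 39.4 to 8.98 ± 2.53 (-5.13, standard error 0.149). TMPRSS13, a membrane protease, had 17.6 ± 0.328 CPM in S2-028 and under 1 CPM on average in the other lines.

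Among 22 genes of co-receptors and ligand-binding proteins, 20 were tested. In S2-028 against S2-007, 3 were higher and 6 lower. GPC1, a heparan sulfate proteoglycan of pancreatic cancer, fell from 169 ± 19.5 to 37.98 ± 2.64 normalized CPM (log2 fold change -2.15, standard error 0.0765), and IGFBP3, which binds insulin-like growth factors, fell from 83.1 ± 6.90 to 11.0 ± 1.95 (-2.91, standard error 0.108). IGFBP1, a binding protein of the same family, fell from 122 ± 13.3 to 53.2 ± 9.43. In S2-020 against S2-007, 3 were higher and 5 lower. IGFBP3 fell there too, to 11.2 ± 0.856, SDC1, the gene of syndecan-1, fell from 302 ± 2.45 to 88.3 ± 3.76 (-1.81, standard error 0.0530) and IGFBP4 rose from 412 ± 45.6 to 1466 ± 44.7 (1.80, standard error 0.0586). In S2-028 against S2-020, 4 were higher, among them NRP1 (1.63, standard error 0.0569), and 6 lower, among them IGFBP4 (-2.08) and GPC1 (-2.31). The medians of this list were -0.18, 0.063 and -0.011 in the 3 comparisons, with 45%, 40% and 50% called against 18.4%, 21.6% and 22.2% of all genes tested.

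Of the 27 adaptor genes, which couple the receptors to RAS and PI3K, all were tested, and most were not called. In S2-028 against S2-007, 5 were higher and 3 lower. CRKL (1.01, standard error 0.0616) and GRB7 (0.94, standard error 0.0734) rose, and GRB10, which restrains the insulin and IGF receptors, fell (-0.98, standard error 0.0717). In S2-020 against S2-007, 2 were higher and 2 lower. IRS1, the first adaptor of IGF1R, fell from 152 ± 7.80 to 68.1 ± 3.50 normalized CPM (SD, n = 3), while IRS2 rose from 98.2 ± 1.75 to 192 ± 10.8 and GAB2 from 9.82 ± 0.0932 to 23.0 ± 1.58. In S2-028 against S2-020, 5 were higher, with IRS1 at 1.34 (standard error 0.0570), and 6 lower, with SHC1 at -1.01 (standard error 0.0513). The adaptor medians were 0.15, 0.21 and -0.12, and 29.6%, 14.8% and 40.7% were called against 18.4%, 21.6% and 22.2% of all genes tested. The share of S2-020 against S2-007 lay under that of all genes and the other shares lay above it.

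Of 23 negative regulators and sheddases, 10 were higher and 2 lower in S2-028 against S2-007, 9 were higher and 5 lower in S2-020 against S2-007, and 5 were higher and 3 lower in S2-028 against S2-020. The medians were 0.38, 0.29 and -0.031, and 52.2%, 60.9% and 34.8% were called against 18.4%, 21.6% and 22.2% of all genes tested. SPRY1, a Sprouty inhibitor that FGF signals induce, had 10.7 ± 0.613 normalized CPM (SD, n = 3) in S2-007, 35.0 ± 1.34 in S2-020 and 61.2 ± 2.65 in S2-028, and both increases over S2-007 passed the test (1.68 and 2.52 on the log2 scale). LRIG1, which lowers the level of several receptors, had 1.24 ± 0.151 CPM in S2-007, 30.99 ± 2.62 in S2-020 and 2.94 ± 0.484 in S2-028. PTPRF, a receptor phosphatase, fell from 302 ± 12.1 to 129 ± 10.9 in S2-020. ERRFI1, which inhibits EGFR and the related receptors, rose by 0.96 (standard error 0.0680) in S2-028 against S2-007, and CBLC, a ubiquitin ligase of epithelia, by 2.28 (standard error 0.143). In S2-028 against S2-020, PTPRJ and ADAM17, the sheddase, were higher by 0.88 and 0.87.

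The other receptor tyrosine kinases outside the ErbB family gave the setting of the 10 genes. Of 44 such genes, 39 were tested in S2-028 against S2-007, where 13 were higher and 3 lower (41.0% called against 18.4% of all genes tested). In S2-020 against S2-007, 4 of 38 were higher and 10 lower (36.8% called against 21.6%), and in S2-028 against S2-020, 13 of 39 were higher and 3 lower (41.0% called against 22.2%). The medians were 0.0094, -0.35 and 0.56. MST1R, the relative of MET, had 152 ± 5.94 normalized CPM (SD, n = 3) in S2-007, 84.7 ± 0.911 in S2-028 and 26.5 ± 1.69 in S2-020, the same order of lines as MET. INSR, the relative of IGF1R, had 28.3 ± 1.37, 7.76 ± 0.271 and 15.5 ± 0.333 CPM in the same lines, so that it was lowest in S2-028, where IGF1R was highest. ROR1, a WNT5A receptor, rose by 2.06 (standard error 0.0829) in S2-028 against S2-007, and EPHB6 by 2.97 (standard error 0.0919). EPHB2 fell in S2-020 against S2-007 by 3.21 (standard error 0.133).

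The genes most like the receptors with the widest range across lines were found by Pearson's r of log2 CPM over the 9 libraries, among 10524 genes whose mean log2 CPM was 3 or more. These r values mainly reflect 3 line means. For FGFR1 they were B4GALT4 and MACROD2 (r = 0.998 for both), and 436 genes had an r of at least 0.95. For FGFR2 they were LINC02210 (0.993) and CHRNB1 (0.990), and for FGFR3 MAT2A (0.991) and USP35 (0.987).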

How the data were processed

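The 9 RNA-seq libraries, 3 per cell line, were grouped by their labels. Per the labels and the paper, reads of strand-specific mRNA libraries were trimmed with Trimmomatic 0.39 and aligned with BWA 0.7.17 to GRCh38.p14. The authors deposited raw counts per gene, as whole numbers. The counting tool and its treatment of shared, overlapping and opposite-strand reads are not given in the sources used here. BWA does not join reads across introns, which can lose reads over exon junctions. The 18 deposited columns of normalized signal (counts that the authors scaled to a common total or with TMM) were not used, and 2 lines that name no gene were dropped.

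Counts were tested over all genes in R 4.3.3 with edgeR 4.0.16 (filterByExpr with a minimum count of 10 and total of 15, TMM, glmQLFit and glmQLFTest), with 6 libraries per fit. A likelihood ratio test, which the study's methods name beside a gene table made by quasi-likelihood, was an alternative. Others were DESeq2 1.42.0, other size factors, no filter, all 9 libraries, a replicate block and each library left out. The standard error was computed from the log2 fold change and the F statistic. Printed CPM use TMM factors from all 9 libraries, so their ratios can differ slightly from the fold changes. The fits were tested on simulated data with 200 changed genes per comparison. All 4-fold changes were called. Of the 2-fold changes, 77 of 92 were called for S2-028 against S2-007, 79 of 89 for S2-020 against S2-007 and 79 of 92 for S2-028 against S2-020. False calls numbered 7, 6 and 5 in the same order. No pair of libraries was a repeat (chi-square per gene at least 8.20 within a line).

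The receptor genes and the lists were chosen with earlier results of these data known. Named by rule were the 10 receptors, HGF, GAS6, PROS1, IGF1 and IGF2, at most 3 called genes per list and comparison with the smallest adjusted p and a mean log2 CPM not below 0, and the 2 genes most like the 3 receptors of widest range. SERPINB5 was named as a check. KLB, CDH1, CLDN7, LYZ, CD68, PTPRC, SPINT2 and INS-IGF2 were named after values were seen. Coordinates are those of RefSeq, in which 99.6% of the gene identifiers were found. Transcript lengths, shared sequence and overlaps are from GENCODE 44.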

Additional observations from a re-analysis of the deposited data

How the results depend on the processing

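The receptor genes called numbered 5 in S2-028 against S2-007 and 7 in S2-020 against S2-007 under every alternative run. In S2-028 against S2-020 they numbered 5 or 6, because FGFR4, at -0.58, passed the fold-change threshold with DESeq2 size factors (-0.59), without a filter on low counts (-0.59), with DESeq2's Wald test (-0.59), with all 9 libraries in one fit (-0.59) and without replicate 3 of S2-020 (-0.65). FGFR2 in S2-020 against S2-007 was the only receptor difference whose sign turned, to 0.078 without replicate 1 of S2-007 (range over libraries left out singly: -0.52 to 0.078). TYRO3 in S2-028 against S2-007 had an adjusted p between 0.00181 and 0.195 over the alternatives. The numbers of all genes called were 4858, 5769 and 5788, and with the replicate block 4890, 5699 and 5752. The replicate block called 5, 7 and 5 receptor genes and changed no receptor call. Same-numbered libraries did not deviate together over the genes that passed the filter (r between -0.022 and 0.014). Whether they shared a culture day or a preparation is not stated in the sources. With each library left out in turn, all genes called lay between 4642 and 4828, between 5488 and 5791 and between 5507 and 5724.

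Depth limits HGF, with at most 28 counts per library, more than the receptor genes, with at least 94 counts in every library. Whether the tests cover differences between cultures is not known, since the origin of the libraries is not stated.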

Other observations

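Some further genes of the lists, chosen after their values were seen, differed between the lines. KIT, the receptor of stem cell factor, had 2.45 ± 0.350 normalized CPM (SD, n = 3) in S2-028, against 0.265 ± 0.0503 in S2-007 and 0.218 ± 0.118 in S2-020. It was higher in S2-028 than in S2-007 by 3.21 on the log2 scale (standard error 0.305, adjusted p = 2.45e-08, edgeR). FLT3, a receptor of blood progenitors, had 78 to 98 counts per library in S2-020 and 0 to 10 in S2-007. SPRY2, a Sprouty inhibitor like SPRY1, had its highest level in S2-020, at 46.7 ± 2.36 CPM, against 16.5 ± 0.940 in S2-007 and 21.5 ± 2.64 in S2-028, another order than that of SPRY1. Its log2 fold change was 1.47 in S2-020 against S2-007 (standard error 0.0727, adjusted p = 1.73e-12) and -1.12 in S2-028 against S2-020 (standard error 0.0868, adjusted p = 2.47e-09).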
